A study of Mus musculus with 18 samples.

Results

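The 6 libraries of mouse pluripotent stem cells grown in ABCL medium were compared with the 12 libraries of the series grown in other media, out of 18 in all. ABCL is the serum-free base N2B27 with Activin A, BMP4, the GSK3 inhibitor CHIR99021 and leukemia inhibitory factor (LIF). The ABCL libraries are the 3 labelled ASC (advanced pluripotent stem cells, made from AFSC) and the 3 labelled ESC-ASC (made from ESC that had been kept in 2iL). The other groups, with 3 libraries each, are ESC (naive embryonic stem cells in 2iL, which holds inhibitors of MEK and GSK3 and LIF), EpiLC (epiblast-like cells, a transient state reached from ESC), AFSC (primed cells kept in Activin A and FGF2) and EpiSC (epiblast stem cells). The labels give every library as wild type, strain 129S2/SvPasCrl, whereas the methods of the study describe AFSC lines from more than 1 genetic background. The culture media of EpiLC and EpiSC are not in the labels. ASC lines were grown from colonies picked for a pluripotency reporter, and the 3 ESC-ASC libraries carry 1 line name in the file headers. With only 2 ABCL groups, the medium, the line and the history of the cells cannot be told apart. The study calls its replicates biological without saying which were separate cultures or lines, and p-values measure the spread between these libraries.

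The agents in the medium feed into signaling pathways with known roles in early development. BMP4 binds receptor kinases that activate SMAD1, SMAD5 and SMAD9, whose classic targets are the Id genes. Activin A, like Nodal, acts through SMAD2 and SMAD3. CHIR99021 blocks GSK3 and thereby stabilizes β-catenin, the effector of canonical WNT signaling. LIF acts through the receptor subunits LIFR and gp130, the kinase JAK1 and the transcription factor STAT3, and supports naive self-renewal in mouse cells. LIF and CHIR99021 are shared with 2iL and activin with the AFSC medium, while BMP4 is named for ABCL alone among the media known here.

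A gene was counted as higher or lower in ABCL where all 8 contrasts (ASC and ESC-ASC, each against ESC, EpiLC, AFSC and EpiSC) had an adjusted p under 0.05 with the same sign. Of 16212 autosomal genes tested, 592 were higher (3.65%) and 624 were lower (3.85%). Among the genes higher in ABCL were those for the glucose transporter GLUT3 (Slc2a3), the phosphofructokinase Pfkp, the Nodal co-receptor Tdgf1, Bmp4 itself, Jak1, Gata2, Hnf4a and the DNA methylation cofactor Dnmt3l. Among those lower were Thbs2, Oasl2, Etv1, Mbd3, and transcripts of the imprinted cluster on chromosome 12. None of the 5 core pluripotency factors and none of the naive genes differed in 1 direction from all 4 other groups in both ASC and ESC-ASC.

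Total counts ran from 4961934 to 9906473 in the ASC, ESC, EpiLC, AFSC and EpiSC libraries and from 17813619 to 18071600 in ESC-ASC. ESC-ASC counts are therefore the more precise, and its larger number of calls below cannot be told apart from its depth. The chi-square statistic per degree of freedom between replicates was 21.5 to 100.1 for pairs with replicate 1 of ASC, AFSC, EpiLC or ESC and 1.65 to 11.8 for all other pairs, so no 2 libraries were the same within sampling noise. Results that turn on these 4 libraries are given without them as well. Levels below are counts divided by the library's size factor and by exonic length in kb (normalized counts per kb). Differences are log2 fold changes ± standard error (SE) from edgeR, with Benjamini-Hochberg adjusted p.

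ASC alone was higher than all 4 other groups in 1146 genes (7.07%) and lower in 1142 (7.04%). The same counts for ESC-ASC were 2021 (12.5%) and 1910 (11.8%). The 592 genes higher in both made up 51.7% of the ASC list and 29.3% of the ESC-ASC list. The 624 genes lower in both made up 54.6% and 32.7%. With a log2 fold change beyond 1 required in all 8 contrasts, 309 genes were higher (1.91%) and 93 lower (0.574%). The 93 fell to 59 without ESC replicate 1 and to 40 without the 4 libraries that stand apart, where 274 were higher. The genes called higher in ABCL had the wider fitted differences under the filter used, which keeps genes near 0 outside ABCL. Their median log2 fold change over the 8 contrasts was 2.34, against -1.11 for those called lower and 0.06 for all autosomal genes. With at least 10 counts required in every library, which drops such genes, 62 were higher and 40 lower with a log2 fold change beyond 1. How far genes near 0 set the wider median was not tested. In 552 of the 592 and 548 of the 624, the 6 ABCL libraries did not overlap the 12 others, a pattern found in 4.9% (above) and 4.5% (below) of all genes tested. The rule favors such separation in the genes it calls, so this is a description. These genes need not be at 1 level in the 2 ABCL groups. ASC and ESC-ASC differed in 239 of the 592, with 75 higher in ASC, and in 200 of the 624, with 192 higher in ASC. X-linked genes, which are not in these counts, had 47 of 641 higher (7.33%) and 1 lower (0.156%).

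Each ABCL group can be set against the cells it was made from, ASC against AFSC and ESC-ASC against ESC. These contrasts share no library. Over all 16212 genes the log2 fold changes of the 2 conversions had almost no correlation (Pearson r = -0.00538, Spearman rho = 0.0418, across genes, which are not independent replicates). Both conversions raised 1812 genes (11.2%) and lowered 1662 (10.3%), whereas 1566 rose from AFSC and fell from ESC and 1405 did the reverse. The genes called higher in ABCL had median changes of 2.15 from AFSC and 1.85 from ESC, and those called lower -0.99 and -1.01. The rule requires both signs for those genes, so their place in the plot is a description.

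**Figure D1:**
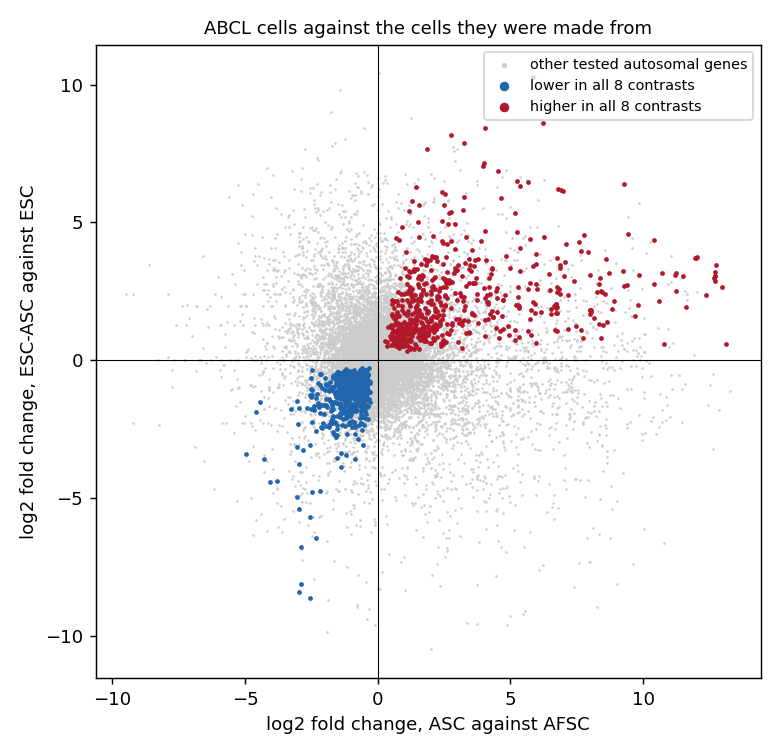
Log2 fold change of ASC against AFSC (x axis) and of ESC-ASC against ESC (y axis), 1 point per autosomal gene tested. Red points are the 592 genes higher and blue points the 624 genes lower in both ABCL groups than in all 4 other groups, and grey points are the rest, which fill all 4 quadrants.

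Called genes were not spread evenly over gene lengths. Median exonic length was 4120.5 bases for genes higher in ABCL, 2799 for those lower and 3505.5 for all genes tested. Among 10 bins of genes by length, 5.86% were higher and 1.54% lower in the longest, and 3.39% were higher and 6.53% lower in bin 2, the next to shortest. With a length trend removed from each library, 519 genes were higher (492 of them among the 592) and 782 lower (592 of them among the 624). What length adds to any 1 gene's difference was not tested.

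For every list below, the share of all genes called in all 8 contrasts was 3.65% higher and 3.85% lower. A single called gene in a list of 15 to 20 is near these shares. BMP signaling genes come first, since BMP4 is the agent named for ABCL alone among the media known here. Of 15 genes for BMP ligands, receptors and SMADs, Bmp4 and Smad9 were higher in all 8 contrasts and none was lower. Bmp4 (chr14:46383520-46390669) encodes the ligand that is also supplied in the medium. Its level was 64.6, 49.0 and 53.3 in the ASC libraries and 45.5, 40.7 and 42.8 in ESC-ASC. The other 12 libraries held 2.38 to 21.8, the highest of them in EpiLC, so the groups did not overlap. The contrast nearest 0 was ESC-ASC against EpiLC at 1.26 ± 0.20 (largest adjusted p of the 8 = 2.38e-05), and ASC and ESC-ASC did not differ detectably (0.36 ± 0.18, adjusted p = 0.112).

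Smad9 (chr3:54755582-54801257), one of the SMADs that BMP receptors activate, had levels of 4.63, 5.03 and 6.13 in ASC and 2.82, 3.54 and 4.67 in ESC-ASC. ESC libraries held 0.734, 2.17 and 2.50, and the other 3 groups 0 to 1.15. The highest ESC library thus lay just below the lowest ESC-ASC library. The nearest contrast was ESC-ASC against ESC at 0.91 ± 0.35 (adjusted p = 0.0335). That call was lost without ESC replicate 1 (0.63, adjusted p = 0.128), without ESC replicate 2 (1.01, 0.0562), without ESC-ASC replicate 3 (0.72, 0.126) and without the 4 libraries that stand apart (0.64, 0.102). It was also lost with DESeq2 (0.94, 0.0697) and with ESC-ASC thinned to the depth of the other libraries (0.61, 0.182).

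The bases just upstream of these 2 genes are shown because both genes were higher in ABCL and BMP-activated SMADs are known to bind GC-rich elements such as GGCGCC. Each run is the 250 bases before the gene's start in RefSeq, build GRCm38.p6, written 5′ to 3′ on the gene's strand, with GGCGCC (which reads the same on both strands) in capitals. The Bmp4 window is chr14:46390670-46390919 on the minus strand and the Smad9 window is chr3:54755332-54755581 on the plus strand.

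Bmp4: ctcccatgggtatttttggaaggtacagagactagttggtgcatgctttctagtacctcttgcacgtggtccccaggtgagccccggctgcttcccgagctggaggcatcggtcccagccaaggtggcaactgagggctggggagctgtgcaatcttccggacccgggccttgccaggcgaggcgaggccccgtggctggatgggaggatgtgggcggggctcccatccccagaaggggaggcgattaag
Smad9: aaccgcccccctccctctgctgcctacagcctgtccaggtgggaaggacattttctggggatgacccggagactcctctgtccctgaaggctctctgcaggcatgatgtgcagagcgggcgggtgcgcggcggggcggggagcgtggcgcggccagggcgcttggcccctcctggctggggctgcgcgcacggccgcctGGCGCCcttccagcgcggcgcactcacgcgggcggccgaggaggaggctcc

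The Smad9 run holds 1 GGCGCC and the Bmp4 run none. Shares were counted over the whole promoter window of the table, which also takes in the first bases after the start. Of the 31 list genes called in either direction, 24 had a promoter in the table, and 7 of these (29.2%) held GGCGCC, against 3898 of all 32851 promoters of the same length (11.9%). None of the 24 held CTTTGAT or its complement, a sequence bound by TCF/LEF factors, against 1225 of all promoters (3.73%). Base composition was not compared between the sets, and a match of letters is a description of the window only.

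BMP target and inhibitor genes were a different case from the ligand. Of 17 tested, only Gata2 was higher in all 8 contrasts and none was lower. ASC alone was higher than all 4 other groups for 10 of the 17 (7.07% of all genes). ESC-ASC alone was higher for 1 (12.5% of all genes) and lower for 1 (11.8%). ASC exceeded ESC-ASC in 14 of the 17 and fell below it in 1, against 26.3% and 23.7% of all genes.

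**Figure D2:**
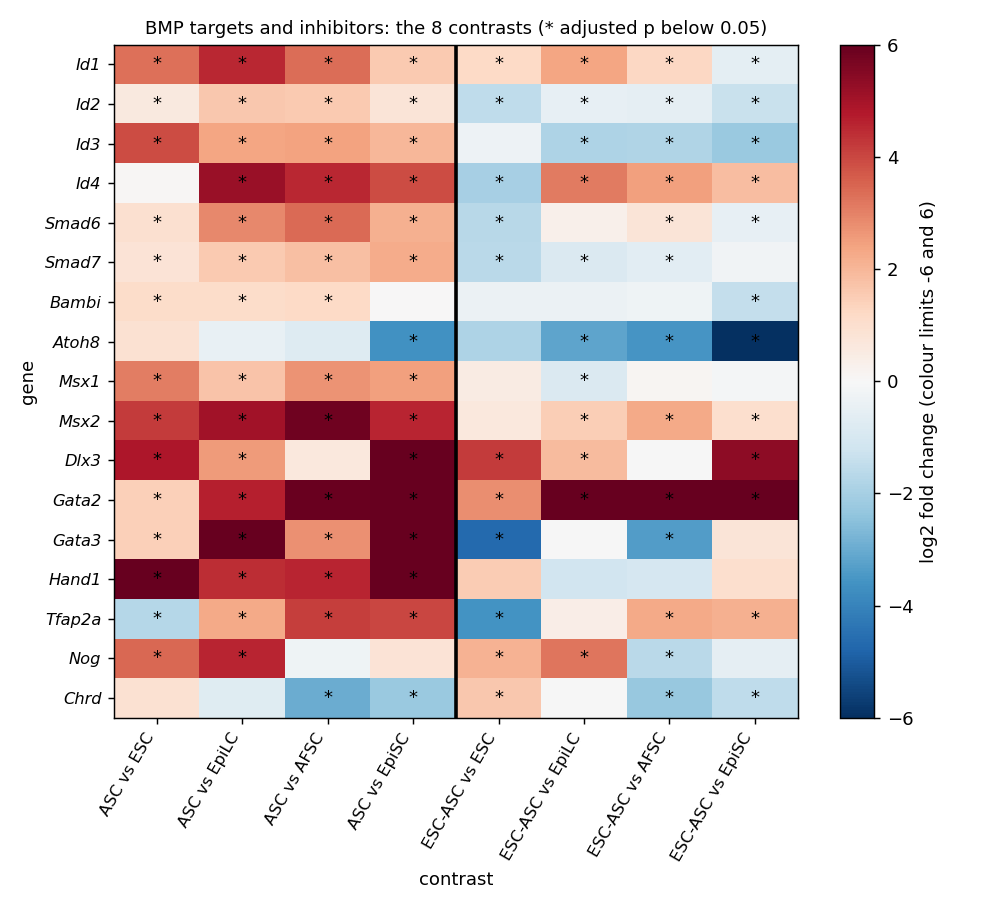
Log2 fold change of the 17 tested BMP target and inhibitor genes (rows) in the 8 contrasts (columns), red higher and blue lower in ABCL, with colors limited at 6 in either direction and an asterisk for an adjusted p under 0.05. The 4 ASC columns are red for most genes, the 4 ESC-ASC columns are mixed, and Gata2 alone is red with an asterisk in all 8.

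Gata2 (chr6:88193891-88207032), a GATA factor of trophoblast and blood, had levels of 33.0, 31.8 and 34.1 in ASC and 87.0, 72.7 and 89.5 in ESC-ASC. The ESC libraries held 7.67, 13.1 and 14.3 and the remaining 9 libraries at most 2.18. It was the only target lower in ASC than in ESC-ASC (-1.34 ± 0.21, adjusted p = 3.57e-05), and its nearest contrast was ASC against ESC at 1.43 ± 0.23.

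The inhibitors of differentiation Id1, Id2 and Id3 are the textbook readout of BMP signaling. Id3 was at 348, 603 and 556 in ASC and at 29.0, 23.9 and 27.7 in ESC-ASC, with 18.7 to 132 in the other 12 libraries. Every ASC library was above all others and every ESC-ASC library was below the EpiLC, AFSC and EpiSC libraries, a difference of 4.21 ± 0.22 between the ABCL groups (adjusted p = 6.21e-11). Id1 was at 222, 397 and 377 in ASC and 70.8, 72.2 and 78.7 in ESC-ASC, and it passed as higher in 7 contrasts but as lower in ESC-ASC against EpiSC (-0.58 ± 0.25, adjusted p = 0.043). Id2 was higher in ASC and lower in ESC-ASC than in every other group, its ESC-ASC levels being 48.0, 49.9 and 52.5 against 199, 213 and 238 in ASC. Id4 was at 67.6 to 79.3 in ASC, at 57.8 to 84.3 in ESC and at 15.1 to 20.5 in ESC-ASC.

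The inhibitory SMADs, which BMP signaling induces as feedback, followed the same split. Smad6 was at 71.7 to 102 in ASC and 13.0 to 15.7 in ESC-ASC, with 6.31 to 50.1 elsewhere. Smad7 was at 271 to 302 in ASC and 49.3 to 58.3 in ESC-ASC, with 59.5 to 168 elsewhere. Both fell from ESC to ESC-ASC (-1.67 ± 0.20 and -1.61 ± 0.12, adjusted p = 1.03e-06 and 2.93e-09) and rose from AFSC to ASC (3.40 ± 0.23 and 1.81 ± 0.13, adjusted p = 2.95e-10 and 4.51e-10). Bambi, a decoy receptor, was at 33.8 to 43.7 in ASC, 12.6 to 15.4 in ESC-ASC and 33.0 to 40.2 in EpiSC.

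Most transcription factor targets were higher in ASC than in ESC-ASC. Msx2 was at 28.6, 39.3 and 40.5 in ASC and 2.30, 3.86 and 2.75 in ESC-ASC, against at most 3.06 elsewhere, and it missed the call only in ESC-ASC against ESC (0.64 ± 0.45, adjusted p = 0.232). Msx1 was at 20.6 to 21.3 in ASC and 2.60 to 4.25 in ESC-ASC. Hand1, of extra-embryonic and lateral mesoderm, was at 33.5, 35.4 and 47.8 in ASC and 1.26, 0.488 and 0.502 in ESC-ASC. Gata3, of trophoblast, was at 11.1, 15.9 and 13.8 in ASC with 4 counts over the 3 ESC-ASC libraries. Tfap2a was highest in ESC (44.9 to 83.3), at 13.3 to 21.8 in ASC and at 4.06 to 5.57 in ESC-ASC. Dlx3 passed as higher in 6 contrasts and missed in both against AFSC. Of the secreted inhibitors, Nog ranged over 1.44 to 7.36 in ABCL and up to 10.3 in AFSC, and Chrd was at 3.20 to 10.1 in ABCL against 21.4 to 40.8 in AFSC and 17.3 to 22.4 in EpiSC. Atoh8 was sparse in ABCL, with 5 counts in ASC and 1 in ESC-ASC.

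In the WNT list, Ascl2 alone of 20 genes was higher in all 8 contrasts and none was lower. Ascl2 (chr7:142966829-142969264) encodes a bHLH factor that WNT signaling induces in intestine and that trophoblast requires. It was at 31.9, 53.1 and 41.2 in ASC and 135, 140.2 and 146 in ESC-ASC, above the 4.86 to 21.4 of the other libraries, with a nearest contrast of 1.16 ± 0.29 (ASC against EpiLC, adjusted p = 0.00196). Feedback genes did not follow it. Axin2, the standard readout of β-catenin, was at 110.4, 102 and 112 in ASC, 41.6, 32.8 and 44.5 in ESC-ASC and 185, 225 and 216 in ESC, so ABCL libraries lay below the other group with CHIR99021. Sp5 showed a wider gap, with 17.0, 12.5 and 16.7 in ESC-ASC against 506, 515 and 545 in ESC (-5.09 ± 0.22, adjusted p = 1.41e-12) and 74.5, 115 and 121 in ASC. Cdx1 was at 246, 461 and 404 in ASC and 50.4, 35.1 and 49.0 in ESC-ASC, with 135, 142 and 135 in ESC and no count in AFSC. In the list as a whole, 16 of 20 genes were higher in ASC than in ESC-ASC and 3 lower, against 26.3% and 23.7% of all genes.

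From the LIF list, Jak1 (chr4:101152367-101265282) alone of 15 genes was higher in all 8 contrasts and none was lower. Its levels were close to each other in the 6 ABCL libraries, 93.8, 91.3 and 86.5 in ASC and 85.8, 86.5 and 91.3 in ESC-ASC. The 12 others held 25.3 to 52.5, the highest in ESC, and the nearest contrast was ESC-ASC against ESC at 0.94 ± 0.18 (adjusted p = 0.000208). In the 6 contrasts that leave out ESC, 11 of the 15 were higher, against 11.4% of all genes (this subset of contrasts was chosen after the values were seen). The exceptions were Gbx2, Cish, Socs1 and Junb, of which Socs1 and Junb were lower in ASC than in AFSC (-0.92 ± 0.25 and -1.18 ± 0.18, adjusted p = 0.00361 and 1.96e-05). Stat3 was at 73.1, 79.4 and 89.0 in ASC, 224, 214 and 237 in ESC-ASC, 64.6, 115 and 119 in ESC and at most 18.2 in the other 9 libraries. Socs3, the feedback inhibitor induced by STAT3, was at 1042, 951 and 993 in ESC-ASC, 387, 393 and 365 in ESC and 192, 272 and 273 in ASC, so the ABCL groups lay on either side of ESC (-2.03 ± 0.14 for ASC against ESC-ASC, adjusted p = 1.87e-09).

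In the activin and Nodal list, 2 of 18 genes were higher in all 8 contrasts and none was lower. Tdgf1 (chr9:110939603-110946158) encodes Cripto, the co-receptor through which Nodal acts. Its levels were 2746, 2088 and 1879 in ASC and 2150.0, 2404 and 2104 in ESC-ASC. All 12 other libraries held 481 to 996, and no other group came near ABCL. The nearest contrast was ASC against AFSC at 1.51 ± 0.17 (largest adjusted p = 3.87e-07), and its rise in the 2 conversions did not differ detectably (1.51 ± 0.17 from AFSC and 1.80 ± 0.17 from ESC, adjusted p of the difference = 0.321). Inhbb (chr1:119415465-119422248), the subunit of activin B, was at 10.4, 11.96 and 13.1 in ASC and 11.6, 12.3 and 9.07 in ESC-ASC against 0 to 4.95 elsewhere (nearest 1.39 ± 0.33, ESC-ASC against EpiSC, adjusted p = 0.000994).

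Cfc1 (chr1:34535648-34544313), the paralog of Tdgf1 in the EGF-CFC family, moved the other way. It had 1 count over the ASC libraries and 5 over the deeper ESC-ASC libraries, against 10 in EpiLC, 23 in AFSC and 25 in ESC, while EpiSC levels were 49.3, 33.9 and 27.6. The nearest contrast was ESC-ASC against EpiLC at -1.91 ± 0.74 (adjusted p = 0.0301, counting ratio 0.243 with an exact 95% interval of 0.0651 to 0.780). With so few counts the call was lost without ASC replicate 2 (-1.91, 0.0732), ASC replicate 3 (-1.91, 0.0695), EpiLC replicate 1 (-1.87, 0.0671), EpiLC replicate 2 (-1.63, 0.13) or ESC-ASC replicate 2 (-1.32, 0.112), and without the 4 libraries that stand apart (-1.89, 0.0631) or with ESC-ASC thinned (-1.48, 0.121).

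The Nodal targets did not rise with the co-receptor. Lefty1, a feedback inhibitor, was at 93.2 to 273 in ABCL and 113 to 201 in ESC, against 1079 to 4732 in EpiLC, AFSC and EpiSC. Nodal was at 339, 249 and 228 in ASC and 77.7, 97.7 and 76.1 in ESC-ASC, the latter below all other libraries (220.5 to 869). Acvr1b, the type I receptor of activin and Nodal, passed as higher in 7 contrasts and missed in ASC against ESC (0.44 ± 0.19, adjusted p = 0.058).

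Among FGF and ERK genes, 3 of 24 were higher in all 8 contrasts and 1 was lower. Receptors Fgfr3 and Fgfr4 were both low in absolute level and higher in ABCL. Fgfr4 (chr13:55152640-55168759) was at 7.62, 9.97 and 8.05 in ASC and 8.96, 14.3 and 11.5 in ESC-ASC, against 0.654 to 3.51 elsewhere (nearest 1.46 ± 0.29, ASC against EpiSC, adjusted p = 0.000217). Fgfr3 (chr5:33721674-33737068) was at 6.03, 5.81 and 2.45 and 6.34, 6.60 and 5.11 against 0.156 to 2.20 (nearest 1.30 ± 0.35, adjusted p = 0.00292). Fgfr1, the main FGF receptor of these cells, was at 97.8 to 115 in ASC and 59.5 to 69.2 in ESC-ASC against 84.4 to 191. It passed as lower in 6 contrasts and as higher in none.

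Etv1 (chr12:38779380-38868215), an ETS factor downstream of FGF signaling, was the FGF gene lower in ABCL, at 15.2, 8.29 and 9.69 in ASC and 5.30, 5.79 and 5.36 in ESC-ASC. ESC libraries held 16.7, 16.8 and 16.9 and the others 27.7 to 99.1, highest in EpiSC. The nearest contrast, ASC against ESC, was -0.62 ± 0.20 (adjusted p = 0.0149) and was lost without ASC replicate 2 (-0.45, 0.0825) or ASC replicate 3 (-0.54, 0.0603), and with a minimum of 10 counts in every library (-0.50, 0.0577). Ier3 (chr17:35821684-35822923), an immediate early gene, was at 136, 149.7 and 139.7 in ASC and 301, 281 and 308 in ESC-ASC against 6.98 to 79.9 (nearest 1.04 ± 0.19, ASC against AFSC, adjusted p = 0.00011). Egr1, another immediate early gene, separated the ABCL groups rather than the media: it was at 557, 550.3 and 619.6 in ASC and 10.9, 9.67 and 11.4 in ESC-ASC (5.74 ± 0.15, adjusted p = 2.84e-15), and ESC was at 5.73 to 7.79. Dusp6, a phosphatase induced by ERK, was at 55.8 to 113 in ABCL, above ESC (15.6 to 24.7) and below EpiLC, AFSC and EpiSC (254 to 448).

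**Figure D3:**
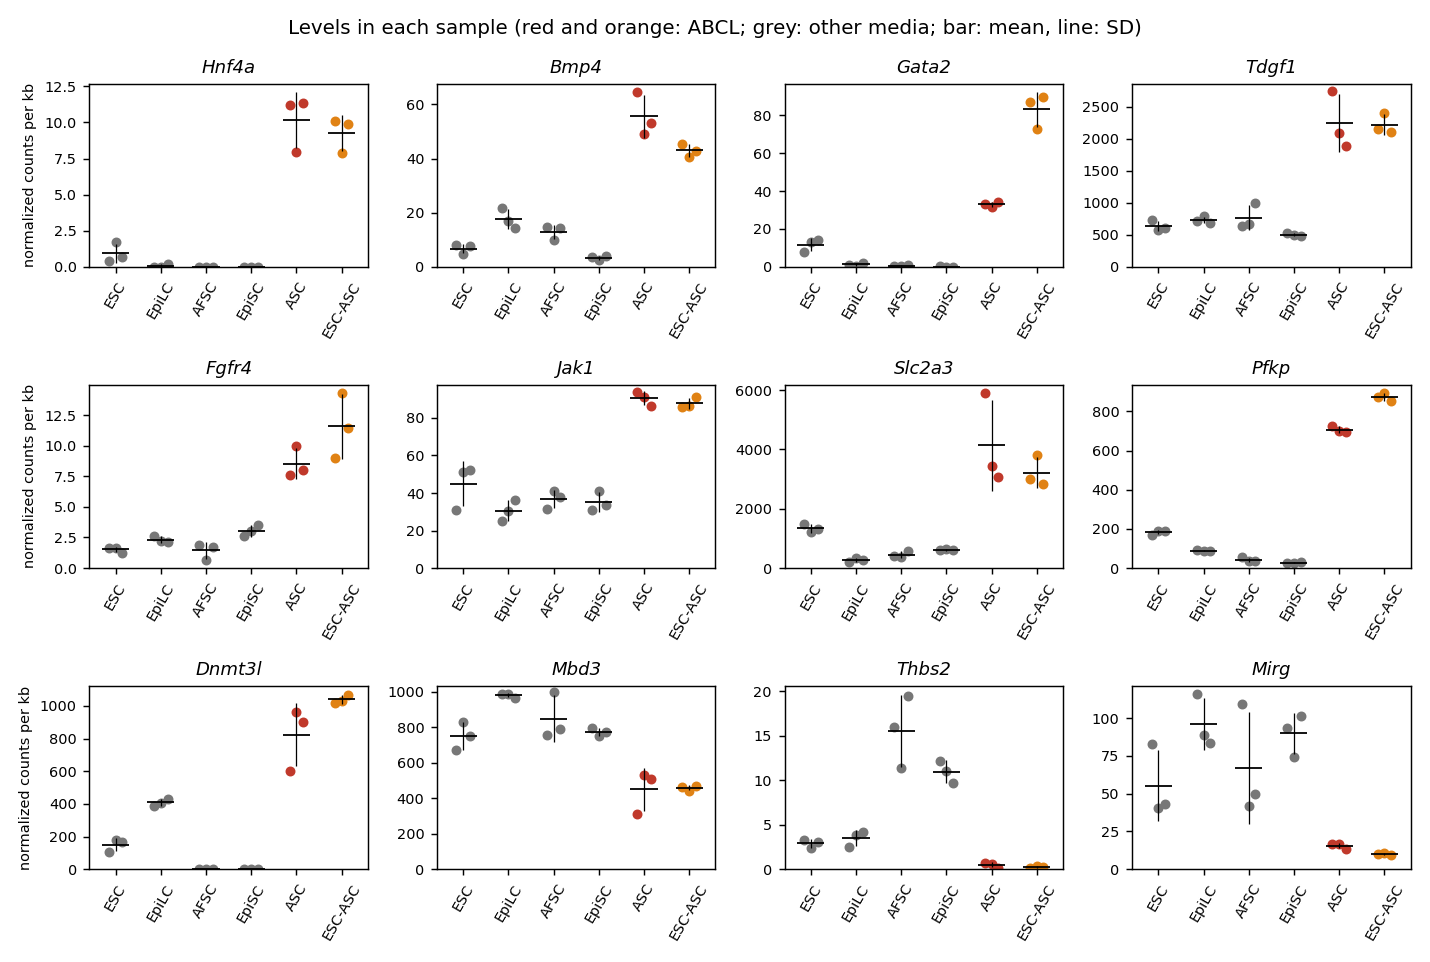
Levels (normalized counts per kb) of 12 genes in each of the 18 libraries, 1 panel per gene, with ASC in red, ESC-ASC in orange and the other groups in grey. Bars on the points give each group's mean and vertical lines its SD (n = 3). In the panels of the genes higher in ABCL, such as Tdgf1 (1879 to 2746 in ABCL, 481 to 996 elsewhere), the 6 colored points lie above all grey points.

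Core pluripotency factors were at similar summed levels in ABCL and the other media (7704 to 12290 over the 5 genes in ABCL, 7471 to 13220 elsewhere). A large part of each sum was Pou5f1, so the sum says little about the other factors and is no test of cell identity. Pou5f1 was at 3497 to 6870.4 in ABCL and 5079 to 8393 elsewhere, and passed in 3 contrasts, all lower. Nanog was at 2664 ± 382 (SD, n = 3) in ASC and 1686 ± 99.8 in ESC-ASC, between ESC (4111 ± 746) and EpiLC (220.1 ± 37.9). Sox2 was at 1774 ± 319 in ASC and 1448 ± 121 in ESC-ASC, passing as higher in the 6 contrasts without ESC and as lower in ESC-ASC against ESC. Sall4 passed as lower in 6 contrasts and as higher in ASC against AFSC, with 296 ± 30.4 in ASC and 160.1 ± 10.8 in ESC-ASC. Lin28a was at 348 ± 45.6 in ASC and 768 ± 58.2 in ESC-ASC, both above ESC (93.4 ± 19.4) and, for ASC, below EpiLC, AFSC and EpiSC.

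None of 19 naive genes was called in all 8 contrasts, but 14 of the 19 were higher in the 6 contrasts without ESC (11.4% of all genes). Leaving out EpiLC instead gave 1 (5.56%), and leaving out AFSC or EpiSC gave 0. ESC was chosen after the values were seen. Esrrb was at 631 to 813 in ASC, 973 to 1084 in ESC-ASC and 597 to 806 in ESC, against at most 14.8 elsewhere. Klf4 was at 903 to 1041 in ASC and 416 to 457 in ESC-ASC, with 667 to 873 in ESC and at most 14.6 elsewhere. All 19 rose from AFSC to ASC (31.8% of all genes did so), and 13 fell from ESC to ESC-ASC (29.6%). Of 14 formative and primed genes none was called in all 8 contrasts and 6 were lower in the 6 contrasts without ESC (9.95% of all genes). Leaving out any other group gave 0.

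Glycolysis genes rose in both conversions. From AFSC to ASC 14 of 17 rose and none fell, and from ESC to ESC-ASC 15 rose and none fell, against 31.8% and 30.7% of all genes that rose. Slc2a3 and Pfkp were higher in all 8 contrasts. In the 6 contrasts without EpiLC 10 of the 17 were higher (5.56% of all genes), and in the 6 without ESC 4 were (11.4%). Leaving out AFSC or EpiSC instead gave 2. EpiLC was chosen as the group to leave out after the values were seen. Slc2a3 (chr6:122727809-122801640) encodes the glucose transporter GLUT3, with 5897, 3434 and 3071 in ASC and 2988, 3824 and 2839 in ESC-ASC. ESC followed at 1486, 1210.2 and 1312, and the remaining libraries held 218 to 657 (nearest contrast 1.26 ± 0.24, ESC-ASC against ESC, adjusted p = 0.000168). Pfkp (chr13:6579768-6648777), the platelet-type phosphofructokinase that commits glucose to glycolysis, was at 726, 701 and 692 in ASC and 874, 892 and 853 in ESC-ASC. ESC libraries held 170.0, 189 and 189 and all others at most 91.0, a nearest contrast of 1.93 ± 0.15 (ASC against ESC, adjusted p = 8.51e-09).

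The exceptions were named genes of the same pathway. Gapdh, at 6136 to 12918 in ABCL, changed detectably in neither conversion (-0.31 ± 0.23, adjusted p = 0.244, and -0.42 ± 0.23, 0.117). Pkm and Pfkm did not pass in ASC against AFSC (0.77 ± 0.34, adjusted p = 0.0573, and -0.33 ± 0.18, 0.122), and Hk1 did not in ESC-ASC against ESC (0.15 ± 0.15, adjusted p = 0.393). EpiLC was the group nearest ABCL for several members. Ldha, the lactate dehydrogenase subunit, was at 4650.3 to 8036 in ABCL and 4979 to 6294 in EpiLC, where neither contrast passed. The lactate exporter Slc16a3 was at 216 to 508 against 894 to 1069 in EpiLC, lower in ABCL in both contrasts. Pdk1, which keeps pyruvate out of mitochondria, was at 161, 186 and 181 in ASC and 330.5, 333 and 339.8 in ESC-ASC against 7.35, 9.12 and 6.46 in ESC. Replicate 1 of ASC, ESC, AFSC and EpiLC was below its partners for Ldha and Pkm. Without the 4 libraries that stand apart, 5 of the 17 glycolysis genes were higher in all 8 contrasts.

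**Figure D4:**
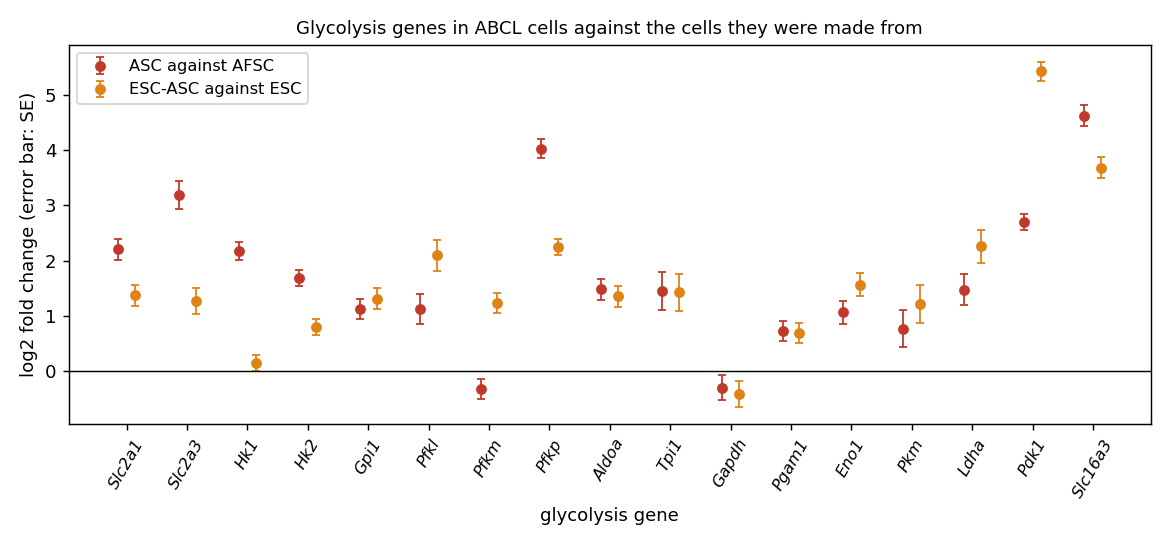
Log2 fold change ± SE of the 17 glycolysis genes for ASC against AFSC and for ESC-ASC against ESC. Most points lie above 0 for both, Gapdh lies below 0 for both (-0.31 and -0.42) without passing the test, and Pfkm lies below 0 for ASC alone.

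Sterol and fatty acid synthesis had 2 of 22 genes higher in all 8 contrasts and none lower. Srebf2 (chr15:82147266-82205376), the master regulator of cholesterol synthesis, was at 826, 711 and 661 in ASC and 682, 747 and 677 in ESC-ASC against 299 to 507 elsewhere (nearest 0.73 ± 0.19, adjusted p = 0.00242). Scd1 (chr19:44394451-44407709), a fatty acid desaturase, was at 529.9 to 705 and 467 to 476 against 144 to 376 (nearest 0.54 ± 0.16, adjusted p = 0.00407). In the 6 contrasts without ESC, 8 of the 22 were lower (9.95% of all genes), and leaving out any other group gave 0. From ESC to ESC-ASC 12 rose and 4 fell (30.7% and 29.6% of all genes). From AFSC to ASC 4 rose and 10 fell (31.8% each way). No gene of 14 p53 targets or of 17 amino acid stress genes was called in either direction.

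Of 22 germline and meiosis genes, 3 were higher in all 8 contrasts and 11 in the 6 without EpiLC (5.56% of all genes), and none was lower. Leaving out ESC, AFSC or EpiSC instead gave 3, and EpiLC was chosen after the values were seen. Piwil2 (chr14:70372480-70429094), a piRNA-binding protein, was at 38.7, 37.9 and 48.2 in ASC and 53.9, 59.99 and 57.8 in ESC-ASC. ESC and EpiLC held 5.62 to 15.5, AFSC 10 counts and EpiSC none, which puts ABCL at least 200.2-fold higher than EpiSC over a floor of 3 counts in a group. The nearest contrast with counts was ASC against EpiLC at 1.59 ± 0.26 (adjusted p = 5.72e-05). Stk31 (chr6:49395604-49469501), a tudor protein of germ cells, was at 56.7 to 70.1 in ASC and 47.9 to 50.4 in ESC-ASC against 28.0 to 38.5 in ESC (0.57 ± 0.16, adjusted p = 0.00726) and had no count in AFSC or EpiSC. Smc1b (chr15:85064691-85131957), the meiotic cohesin subunit, was at 41.6 to 51.3 and 28.4 to 41.4, with 17.7 to 19.3 in EpiLC (nearest 0.94 ± 0.20, adjusted p = 0.000525). Ddx4, the germ cell helicase VASA, was at 62.8 to 76.6 in ESC-ASC and 20.8 to 28.5 in ASC, where it did not pass against EpiLC (-0.38 ± 0.21, adjusted p = 0.121). Without the 4 libraries that stand apart, 5 germline genes were called. None of 10 primordial germ cell genes was called in all 8 contrasts.

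Of 18 genes of the 2-cell stage, 6 were higher in all 8 contrasts (3.65% of all genes) and 13 in the 6 without EpiLC (5.56%). None was lower. Leaving out ESC, AFSC or EpiSC instead gave the same 6 as all 8 contrasts, and EpiLC was chosen after the values were seen. All 6 come from multicopy families whose reads were counted at every place they map, so counts of near-identical copies are shared and the members are not independent. Zscan4b, a zinc finger gene of the 2-cell embryo, was at 439.7, 348 and 382 in ASC and 29.6, 27.3 and 39.8 in ESC-ASC, with 13.8 to 25.0 in EpiLC and at most 1.94 in the other libraries. Its copy Zscan4e was at 557, 466 and 496 in ASC and 46.6, 38.0 and 43.9 in ESC-ASC, with 23.2 to 34.8 in EpiLC and at most 2.26 in the others. ASC exceeded ESC-ASC in all 18 genes, as in 26.3% of all genes tested. The ESC-ASC against EpiLC contrast was 0.67 ± 0.23 for Zscan4b and 0.58 ± 0.23 for Zscan4e (adjusted p = 0.0187 and 0.0316). Zscan4b lost the call without EpiLC replicate 2 (0.44, 0.126) or ESC-ASC replicate 3 (0.51, 0.0912), and Zscan4e without EpiLC replicate 2 (0.45, 0.145), EpiLC replicate 3 (0.56, 0.0814), ESC-ASC replicate 1 (0.53, 0.0881) or ESC-ASC replicate 3 (0.58, 0.0654).

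Tcstv1 and 3 ubiquitin protease genes of the Usp17l family made up the rest of the 2-cell genes called. Tcstv1 was at 63.3, 60.2 and 43.9 in ASC and 7.57, 7.32 and 5.74 in ESC-ASC, with at most 4.13 elsewhere, and was lost without EpiLC replicate 2 (0.91, 0.0814) or EpiLC replicate 3 (1.05, 0.0501), with DESeq2 (1.11, 0.055) and with ESC-ASC thinned (1.06, 0.0567). Usp17lc was at 49.6 to 60.4 in ASC and 7.15 to 9.81 in ESC-ASC, Usp17ld at 35.0 to 37.5 and 4.56 to 5.05, and Usp17le at 54.7 to 62.5 and 4.79 to 11.4, all above the other 12 libraries. Usp17le was lost without EpiLC replicate 1 (0.87, 0.0817), EpiLC replicate 2 (0.84, 0.105), EpiLC replicate 3 (0.98, 0.0582) or ESC-ASC replicate 1 (0.39, 0.367), and without the 4 libraries that stand apart (0.87, 0.0818) or with DESeq2 (0.91, 0.0717). These counts come from bulk RNA, in which fewer expressing cells and less RNA per cell cannot be told apart.

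Of 12 DNA methylation genes, 1 was higher and 1 lower in all 8 contrasts. Dnmt3l (chr10:78041947-78063622), the catalytically inactive cofactor of the de novo methyltransferases, was at 603, 964 and 901 in ASC and 1020.0, 1031 and 1069 in ESC-ASC. EpiLC held 386, 408 and 432, ESC 103, 180.3 and 169, and AFSC and EpiSC at most 2.71 (nearest 0.98 ± 0.18, ASC against EpiLC, adjusted p = 0.000161). The enzymes it assists were ordered otherwise. Dnmt3b was at 136 to 168 in ASC and 231 to 273 in ESC-ASC, against 877 to 2790.1 in EpiLC, AFSC and EpiSC. Dnmt3a was at 37.0 to 48.1 in ABCL against 5.92 to 7.76 in ESC and 241 to 338 in EpiLC. Mbd3 (chr10:80392539-80399550), a subunit of the NuRD repressor, was at 309.7, 531 and 509.5 in ASC and 462, 442 and 470.0 in ESC-ASC against 672 to 997 elsewhere (nearest -0.72 ± 0.16, ESC-ASC against ESC, adjusted p = 0.000771).

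The autosomal genes with the widest separation were chosen by rule: the 12 in each direction whose contrast nearest 0 was largest, among genes with a group mean above 8. On the higher side, Hnf4a (chr2:163506808-163572910), a nuclear receptor of visceral endoderm and liver, was at 11.2, 7.96 and 11.4 in ASC and 10.1, 7.87 and 9.86 in ESC-ASC. ESC held 11 counts in all, EpiLC 1, and AFSC and EpiSC none, so ABCL was at least 38.4-fold above the floor of those 2 groups and 3.17 ± 0.40 above ESC (adjusted p = 6.65e-06). Alppl2 (chr1:87086694-87089928), an alkaline phosphatase, was at 16.3, 5.99 and 7.29 in ASC and 5.36, 4.10 and 5.11 in ESC-ASC, with 1 count in the other 12 libraries together. That count was in ESC and gave ESC-ASC a ratio of 24.8 (exact 95% interval 4.29 to 992), which covers counting error only. Against the 3 groups without a count ABCL was at least 9.39-fold higher.

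Baiap2l1 (chr5:144264526-144358112), an I-BAR protein that binds actin and membranes, had the highest level of this set, at 386, 461 and 457 in ASC and 344, 329 and 339 in ESC-ASC. EpiSC held 47.3, 58.2 and 47.4 and the other libraries at most 23.4 (nearest 2.72 ± 0.18, ESC-ASC against EpiSC, adjusted p = 1.42e-10). Gm15708, annotated on the opposite strand within the same locus (chr5:144277061-144280513), was at 84.8 to 108 in ABCL against 0.598 to 16.2, and counting without strand cannot tell it from unspliced Baiap2l1 RNA. Cmklr1 (chr5:113612354-113650426), the chemerin receptor, was at 56.7, 57.6 and 56.0 in ASC and 26.0, 31.3 and 31.0 in ESC-ASC against 0 to 3.90, with no count in AFSC (nearest 3.05 ± 0.20, ESC-ASC against EpiLC, adjusted p = 1.78e-09). Trim52 was higher in ESC-ASC (18.97 to 20.7) than in ASC (3.43 to 5.22), and the other 12 libraries held 6 counts together. The kallikrein Klk11 was at 10.9 to 16.9 in ABCL against 0 to 3.04.

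Of the remaining 5, 4 carried a limit on their identity. Gm8332 (chromosome 12, 328 to 391 in ASC and 70.7 to 87.6 in ESC-ASC) and D13Ertd608e (49.2 to 57.6 and 4.15 to 6.96) may share reads with near-identical copies. Rapgef3os1 (10.8 to 29.5 and 20.2 to 24.9) and Gm11651 (17.0 to 25.5 and 5.94 to 7.98) are antisense genes with 68.3% and 19.3% of their exonic bases inside another gene's exons. The other, the noncoding Gm2895, was at 22.3 to 37.1 in ASC and 77.9 to 80.6 in ESC-ASC against 0.299 to 6.81.

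On the lower side, Thbs2 (chr17:14665500-14694262), the matrix protein thrombospondin 2, had 8 counts over the ASC libraries and 9 over ESC-ASC. Levels in the other libraries ran from 2.36 to 19.4, highest in AFSC, and the nearest contrast was ASC against ESC at -2.54 ± 0.45 (adjusted p = 0.000129). Oasl2 (chr5:114896936-114912234), an interferon-induced gene of the oligoadenylate synthetase-like family, was at 0.508 to 1.20 in ASC and 0.0786 to 0.306 in ESC-ASC against 2.49 to 28.8, highest in EpiLC (nearest -2.26 ± 0.38, ASC against EpiSC, adjusted p = 4.86e-05). Cdh11 (chr8:102632095-102785642), a mesenchymal cadherin, had 9 counts in ASC, none in the 3 ESC-ASC libraries, 23 in ESC, 35 in EpiLC and 43 in AFSC, whereas EpiSC was at 57.3, 50.2 and 49.6. Its nearest contrast, ASC against ESC, was -1.63 ± 0.61 (adjusted p = 0.0335, counting ratio 0.316 with an exact 95% interval of 0.129 to 0.709). The Cdh11 call was lost without ASC replicate 1 (-1.42, 0.101), ASC replicate 2 (-1.60, 0.0748), ESC replicate 2 (-1.68, 0.0604) or ESC replicate 3 (-1.16, 0.198), and without the 4 libraries that stand apart (-1.64, 0.0521).

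Another 4 genes on the lower side were noncoding. The lincRNA 2700038G22Rik was at 2.03 to 4.58 in ABCL against 11.9 to 33.9, and Gm7932 at 0.474 to 2.46 against 4.49 to 33.8. The small nucleolar RNA Snord104 was at 139 to 431 against 877 to 1966, and such short RNAs are counted here from fragments of a polyA-selected library. Gm44036 was at 8.95 to 34.0 against 49.3 to 241, with replicate 1 of ESC, EpiLC and AFSC each above its partners. Its call (nearest -1.81 ± 0.60, adjusted p = 0.0179) was lost without ASC replicate 1 (-1.79, 0.0551), ASC replicate 3 (-1.64, 0.0582), AFSC replicate 1 (-1.08, 0.0729) or ESC replicate 1 (-1.48, 0.074).

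Of the 12 genes on the lower side, Mir3072, Mirg, Gm26906 and Rtl1 lie in the imprinted Dlk1-Meg3 cluster of chromosome 12, whose long noncoding RNAs and microRNAs are made from the maternal chromosome and whose protein genes from the paternal one. The other genes of the cluster were looked up after these values were seen. Mirg (chr12:109729764-109749460), the host of many microRNAs, was at 16.6, 16.5 and 13.5 in ASC and 10.3, 10.5 and 9.42 in ESC-ASC. The 12 other libraries held 40.2 to 116, none of them near ABCL (nearest -1.83 ± 0.31, ASC against ESC, adjusted p = 0.000108). Gm26906 (chr12:109568628-109571723), all of whose exonic bases lie within Meg3, was at 159.9 to 249 against 430.2 to 3497. Its reads and those of Meg3 cannot be told apart. Meg3 was at 108, 77.7 and 65.9 in ASC and 117, 151 and 108 in ESC-ASC against 129 to 659. It passed as lower in 7 contrasts and missed in ESC-ASC against ESC (-0.49 ± 0.28, adjusted p = 0.142), and Rian did the same (-0.41 ± 0.24, adjusted p = 0.156).

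The paternally expressed genes of the cluster were sparse. Counting without strand cannot tell Rtl1 RNA from transcripts of the opposite strand at its locus, so its counts cannot be assigned to the paternal gene. Rtl1 (chr12:109589194-109600330) was at 1.02 to 1.96 in ABCL against 2.19 to 28.0, with its nearest contrast, ASC against AFSC, at -1.76 ± 0.62 (adjusted p = 0.0193). That contrast rested on AFSC replicate 1, at 11.5 beside 2.19 and 3.26. The Rtl1 call was lost without it (-0.78, 0.273), without ASC replicate 1 (-1.51, 0.083), without ESC replicate 1 (-1.34, 0.0849) and without the 4 libraries that stand apart (-0.50, 0.349), as well as with no filter on low counts (-1.74, 0.0588). Dlk1 passed as lower in 6 contrasts and as higher in ASC against ESC, where ESC held 6 counts in all.

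**Figure D5:**
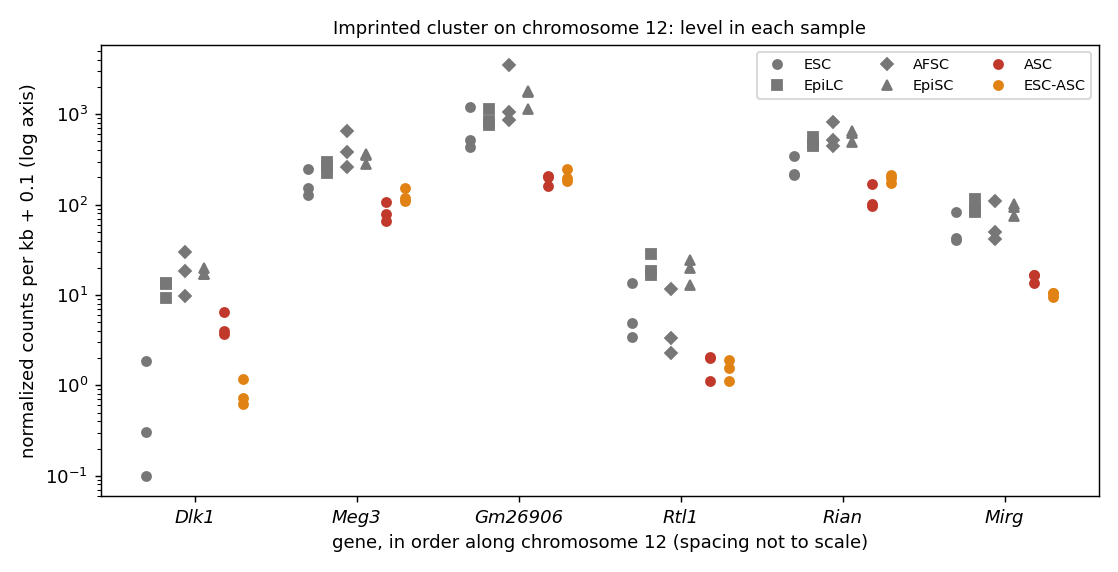
Levels (normalized counts per kb, 0.1 added, log axis) of Dlk1, Meg3, Gm26906, Rtl1, Rian and Mirg in each of the 18 libraries by group. The genes stand side by side in 1 panel, in order along chromosome 12. For Mirg the 6 ABCL libraries (9.42 to 16.6) lie below the 12 others (40.2 to 116), while for Meg3 and Rian the ESC-ASC and ESC libraries lie close together.

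The microRNA loci Mir410, added after its values were seen, and Mir3072 were lower in all 8 contrasts. The counts are of longer fragments over the hairpins within Mirg and not of mature microRNAs. The mature sequences are shown to mark which microRNAs the affected transcript carries. They are from RefSeq, build GRCm38.p6, on the plus strand between chr12:109743729-109743784 for Mir410 and chr12:109747893-109747949 for Mir3072, with the seed (bases 2 to 8) in capitals.

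miR-410-5p: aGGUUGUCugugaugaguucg
miR-410-3p: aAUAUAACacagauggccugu
miR-3072-5p: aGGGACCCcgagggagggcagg
miR-3072-3p: uGCCCCCUccaggaagccuucu

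The 4 seeds differ from each other. Mir410 had 23 counts over the ASC libraries and 28 over the ESC-ASC libraries, at levels of 37.3 to 128 against 172 to 483 (nearest -1.37 ± 0.38, adjusted p = 0.00537). Mir3072 had 7 counts in ASC and 3 in ESC-ASC, against 36 to 66 per group elsewhere (nearest -2.47 ± 0.62, adjusted p = 0.00191).

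Mesoderm and other lineage lists contributed few genes. Of 17 primitive streak and mesoderm genes, Bmp4 and Mesp2 were higher in all 8 contrasts and none was lower. Mesp2 (chr7:79810727-79813439), a bHLH factor of somite formation, was at 4.44, 7.48 and 9.03 in ASC and 11.4, 11.8 and 12.9 in ESC-ASC against 0 to 3.64 (nearest 1.37 ± 0.46, ASC against EpiLC, adjusted p = 0.0166). It was lost without ASC replicate 3 (1.15, 0.0704) or EpiLC replicate 1 (1.01, 0.0551). No Hox gene of 18 tested was called in all 8 contrasts, although 17 rose from AFSC to ASC (31.8% of all genes) and 13 fell from ESC to ESC-ASC (29.6%). None of 11 cadherin and epithelial-mesenchymal genes was called.

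Markers of other cell types that a culture could hold were summed per library. Trophoblast markers were at 831 to 1027 in ASC and 485 to 548 in ESC-ASC. These sums were below AFSC (1968 to 2598) and above every library of ESC, EpiLC and EpiSC (385 to 469). Prl3d1 was at 0 in both ABCL groups, and Elf5 and Tpbpa were at 0 in ESC-ASC. Ascl2 was the 1 called of 8 tested. Primitive endoderm markers were at 165 to 348 in ABCL and 118 to 400 elsewhere, with Ttr at 0 in both ABCL groups. Hnf4a and Amn were higher and Lamb1 was lower in all 8 contrasts, of 10 tested. Amn (chr12:111271111-111276426), an endocytic receptor subunit, was at 17.0 to 27.7 in ABCL against 0 to 8.40, and the laminin gene Lamb1 (chr12:31265234-31329644) at 41.9 to 77.1 against 86.1 to 196. Neural markers summed to 95.2 to 138 in ABCL and 222 to 645 elsewhere, with none of 5 tested called. Fibroblast markers summed to 58.9 to 154 in ABCL and 32.6 to 149 elsewhere, with none of 8 called and Col3a1, Postn, Lum and Acta2 at 0 in ESC-ASC. Blood and endothelial markers summed to 125 to 214 in ABCL and 25.1 to 147 elsewhere, with Pecam1 the 1 called of 5. Pecam1 (chr11:106654217-106750628), also a surface protein of naive cells, was at 112 to 192 in ABCL against 70.8 to 97.5 in ESC and at most 22.5 elsewhere (0.63 ± 0.23, adjusted p = 0.0231). That call was lost without ASC replicate 1 (0.52, 0.0683), ESC replicate 2 (0.53, 0.0984), ESC replicate 3 (0.63, 0.0571) or ESC-ASC replicate 2 (0.54, 0.0854). The part of these markers in any result above was not tested.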

How the data were processed

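RNA of 18 samples of mouse pluripotent cells was sequenced after polyA selection with a directional kit. The authors aligned reads to GRCm38 with TopHat2 and counted them over Ensembl release 86 exons with featureCounts 1.5.0-p1 (minimum overlap of 10 bases, reads with several places or genes counted at each, no strand option). The deposited values are raw read counts per gene, 1 table per library, with total counts of 4961934 to 18071600. Near-identical, overlapping and antisense genes therefore share counts. Groups came from the sample labels. The file headers of the libraries labelled AFSC carry ASC in their name and those of the libraries labelled ASC carry ABCL. The labels were followed, and the naive gene Esrrb was at 0.669 to 2.74 normalized counts per kb in the former and 631 to 813 in the latter.

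A minimum of 10 counts in 3 or more libraries left 16901 of 35773 genes, 16212 of them autosomal, which were fitted with edgeR 4.0.16 (quasi-likelihood, TMM, robust, all 18 libraries, group as the only term) in R 4.3.3, with Benjamini-Hochberg adjustment within each contrast over all tested genes. The SE is the log2 fold change divided by the square root of F. Levels are counts divided by DESeq2 1.42.0 size factors (0.507 to 2.05) and exonic kb. The common dispersion was 0.0283. Counting ratios and intervals (exact, 95%) and floors (3 counts over a group) cover counting error only, and no molecular identifiers were used. The code was tested on simulated data.

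Named genes were the 12 per direction with the largest log2 fold change nearest 0 among called genes with a group mean level above 8, every called list member, and every tested BMP target and core factor. Other list members are given by value whether called or not. The comparison, its members and the gene lists were chosen with earlier results of these data known. Where the text names a left-out library, the pair in parentheses is the log2 fold change nearest 0 and its largest adjusted p. Alternatives were DESeq2, its size factors, other count filters, a replicate block, autosomes alone, thinned ESC-ASC counts, a stricter threshold, 1 test of 2 groups and each library left out. Leaving out 4 libraries together, a length correction and the counts over 6 contrasts were added after seeing the data. The group left out of those 6 contrasts was chosen list by list.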

Additional observations from a re-analysis of the deposited data

Results flagged for a closer look

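Among the named genes called in both ABCL groups, 4 differed between ASC and ESC-ASC by more than 3 on the log2 scale with an adjusted p under 0.05 in edgeR. D13Ertd608e was 3.13 higher in ASC, at 49.2 to 57.6 against 4.15 to 6.96, and the other 12 libraries held 2 counts together (for ESC-ASC against the 1 count in ESC, a counting ratio of 9.75 with an exact 95% interval of 1.60 to 399.8). Zscan4b and Zscan4e were 3.58 and 3.55 higher in ASC, and they share counts with near-identical copies. Cdh11, called lower in ABCL, had a fitted difference of 4.84 between ASC (9 counts) and ESC-ASC (no count in 3 libraries), a value that depends on the prior count.

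X-linked genes were left out of the comparison. By the same test 47 of 641 were higher in both ABCL groups than in all others (7.33%) and 1 was lower (0.156%), against 3.65% and 3.85% of autosomal genes. Over all 641 X-linked genes, the median log2 fold change was 0.846 to 1.03 in the 4 ASC contrasts. In the 4 ESC-ASC contrasts it was -0.183 to 0.0931, so the raised median was seen in ASC alone. By the rule, the 47 called genes were higher in the ESC-ASC contrasts as well. What moved X-linked genes was not tested.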

How the results depend on the processing

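Counts of genes higher and lower in ABCL (592 and 624, and 309 and 93 beyond 2-fold) stayed within 1.5 times under DESeq2 (599 and 605), its size factors (626 and 582), no count filter (593 and 452), autosomes alone (626 and 577), thinned ESC-ASC counts (533 and 629) and a length correction (519 and 782), and no called named gene changed sign. Of genes not called, the mean of the 8 log2 fold changes moved from 0.08 to -0.04 for Id2 (thinned ESC-ASC) and from 0.02 to -0.03 for Lin28a (length correction). With at least 10 counts in every library, which drops genes near 0 outside ABCL, 322 were higher (241 of the 592), and 62 and 40 passed beyond 2-fold. An adjusted p under 0.01 left 348 and 326. One test of 6 against 12 libraries gave 2749 and 3440, since it does not ask for a difference from each group. Leaving out 1 library gave 502 (without ASC replicate 1) to 617 higher, 472 (without ESC-ASC replicate 2) to 661 lower, 275 to 312 higher beyond 2-fold, and 59 (without ESC replicate 1) to 117 lower beyond 2-fold. Without replicate 1 of ASC, AFSC, EpiLC and ESC together (added after seeing the data) 640 were higher and 532 lower (501 and 455 shared), and 274 and 40 beyond 2-fold. The cause of the fall from 93 to 40 was not tested.

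In none of the 8 contrasts were all 3 same-number correlations of deviations over 0.1. A library's best match bore its own number in 19 of 48 cases, unevenly over the contrasts. It did so in 6 of 6 for ESC-ASC with EpiLC, where the correlations were 0.0357, 0.113 and 0.0621, and in 4 of 6 for ASC with ESC. A pairing by number in those contrasts is therefore not excluded. Among the other media all 3 correlations were over 0.1 for AFSC with ESC (0.511, 0.298 and 0.295) and EpiLC with ESC (0.462, 0.178 and 0.252). Those pairs of groups are not compared here. Over all 45 same-number pairs the mean was 0.0924, against -0.0435 for different numbers. With the number as a replicate block, 648 genes were higher and 697 lower (583 and 618 shared), and 305 and 94 beyond 2-fold. For called named genes, 25 results under other settings and 39 with 1 library left out no longer passed, against 472 and 933 that did. Calls were lost at low counts (Cfc1, 1 in ASC) and at high ones (Pecam1, 2523 in ASC), and the cause was not tested.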
